A study of Mus musculus with 4 samples.

Results

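The proteasome genes of mouse bone marrow were described across 4 arrays, 1 for each of 4 groups. They were taken by symbol, as every gene of the platform's table named Psm with a letter from a to g and a number, with the pseudogenes Psmb5-ps and Psmb6-ps left out. The table held 48 such symbols, and 46 of them had a transcript cluster of their own, the set of probes that measures 1 gene on this array, of 30702 genes named in that way. Psmb5 shared its cluster with Mir686, and Psme2 shared its cluster with Psme2b, so neither could be given a value. Of the 46 genes, 43 had a mean log2 level over the 4 arrays at or above 5.235, the median of all clusters, and entered the comparisons with 17208 genes in all. The others were Psma8, a core subunit known from testis, Psmb11, the catalytic subunit known from thymus, and Psmg3, an assembly chaperone. Their levels lay between 3.79 and 5.23 on every array.

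The groups were mice treated with Astragalus membranaceus (a traditional Chinese herbal drug, astragalus below), mice treated with electro-acupuncture, mice given cisplatin (platinum chemotherapy, which damages DNA and dividing marrow cells), and controls. Tibias were taken after 2 weeks and their marrow was spun out, and per the design text 6 marrow samples were mixed, which was read here as 6 to a group. The sources used here give no doses, strain, sex or age. Nor do the labels say whether mice of the astragalus and electro-acupuncture groups were also given cisplatin, so both were set against the cisplatin array and against the control array. With 1 array per group no difference has a replicate check, and no test was run or p-value computed. Differences are of log2 levels, counted by size at 1.5-fold (0.58 on the log2 scale) and at 2-fold, and the number of arrays limits their precision.

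The proteasome is the protease that degrades most short-lived and misfolded proteins of a cell once they carry ubiquitin chains. Its core particle is a barrel of stacked rings, with outer rings of alpha subunits (Psma) that gate the entry and inner rings of beta subunits (Psmb) that hold the active sites. Regulatory caps of ATPases (Psmc) and other subunits (Psmd) bind, unfold and feed the substrate. In immune cells, and in other cells under interferon, the active subunits Psmb6, Psmb7 and Psmb5 are replaced in new particles by Psmb9, Psmb10 and Psmb8, which favours peptides that fit MHC class I molecules. Proteasome genes are of interest in marrow because dividing blood precursors make and degrade much protein.

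The median log2 level over all clusters was 5.15 on the astragalus array, 5.31 on the electro-acupuncture array, 5.26 on the cisplatin array and 5.27 on the control array. The interval from the 5th to the 95th percentile was wider on the astragalus array, at 7.20, against 6.80 to 6.83 on the other 3. The proteasome genes compared lay between 6.13 and 14.49 on every array, below the common ceiling of 19.93. Marrow markers were present: all 9 genes of a neutrophil list and 7 of 8 of a red cell precursor list were above the floor. Of a skeletal muscle list 3 of 6 genes were, with mean levels of 5.56 to 5.68 on the 4 arrays.

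Proteasome genes were higher on the astragalus and electro-acupuncture arrays than on the control array, most of all the alpha and standard beta subunits of the core particle. Against control, all 43 were higher on the astragalus array, with a median log2 difference of 0.84, or 1.79-fold. Over all genes compared 55.3% were higher and the median was 0.05. At least 1.5-fold higher were 32 of the 43, against 14.4% of all genes, and at least 2-fold higher were 15, against 6.13%. None was at least 1.5-fold lower, against 6.67% of all genes. The genes at the top were Psma5, Psmb7 and Psma6, and those at the bottom Psmb10, Psmd8 and Psme4. Brighter genes were in general higher on the astragalus array, and with that trend subtracted (loess over all genes) the counts were 20 at 1.5-fold and 6 at 2-fold. Over all genes 1587 of 17208 were at least 1.5-fold higher after that subtraction. Among the 3752 genes between the level quartiles of the proteasome genes, 70.2% were higher with a median of 0.24, and 26.4% were at least 1.5-fold higher.

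On the electro-acupuncture array 39 of the 43 were higher than on the control array, with a median of 0.56, or 1.47-fold, where 53.7% of all genes were higher and their median was 0.04. Of the 43, 21 were at least 1.5-fold higher, against 11.2% of all genes, and 11 at least 2-fold higher, against 4.16%. None was at least 1.5-fold lower, against 6.85% of all genes. Psma5, Psmb7 and Psma6 again stood at the top, and the 4 genes below control were Psme4, Psmd8, Psmd9 and Psmf1. Both of these comparisons share the control array. In marrow, more cells of a type and more RNA per cell cannot be told apart.

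**Figure D1:**
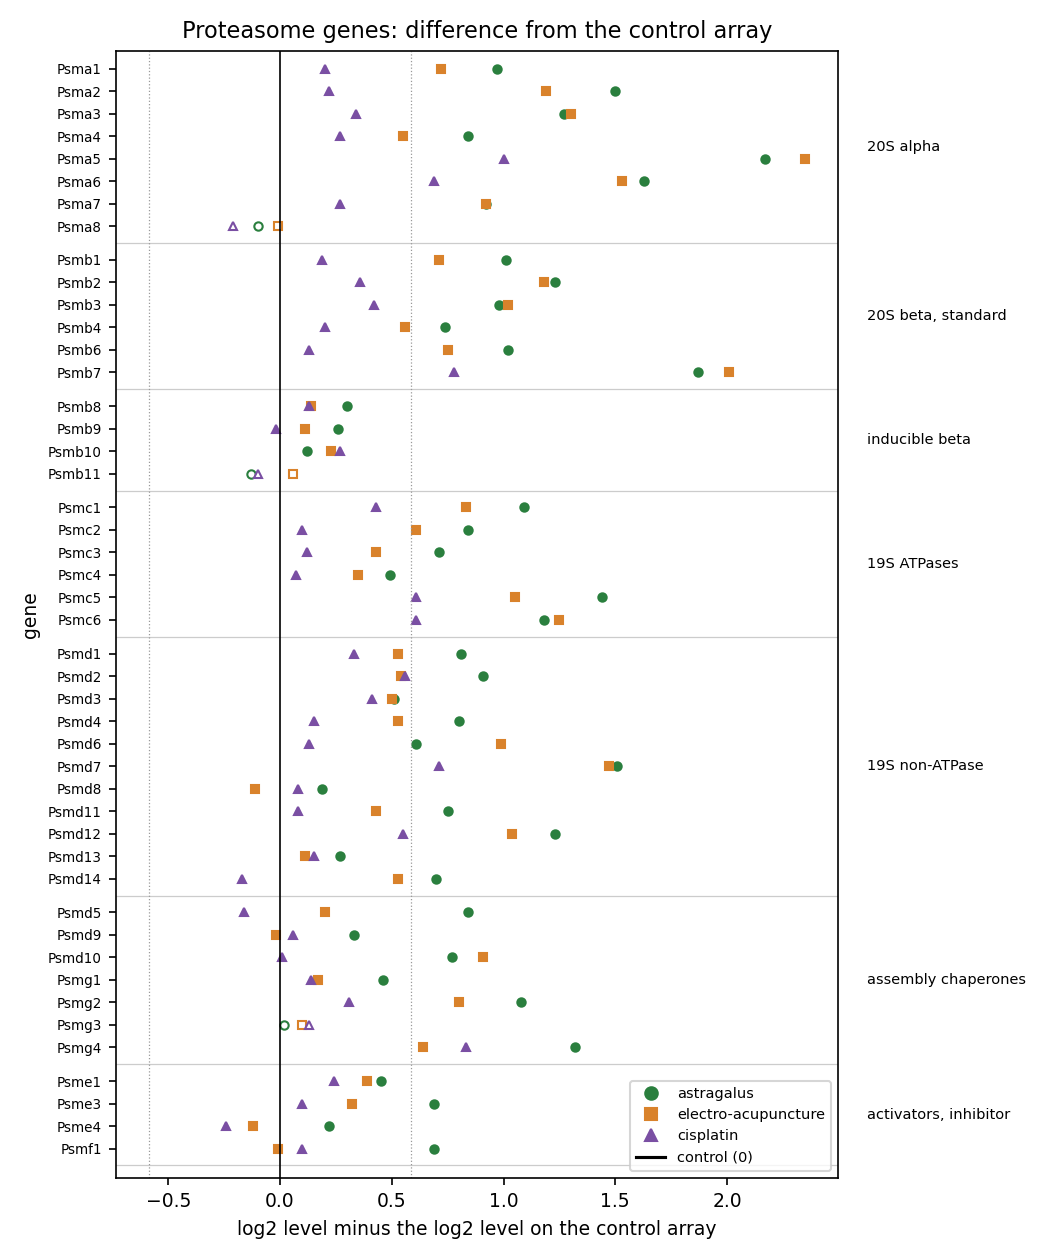
Log2 level of each proteasome gene minus its level on the control array, with 1 symbol for each of the astragalus, electro-acupuncture and cisplatin arrays; genes run down the page by role, open symbols mark genes below the floor, and dotted lines mark 1.5-fold. The label 20S stands for the core particle and 19S for the cap, and thymic Psmb11 is drawn with the inducible subunits. Psma5 lies farthest to the right, at 2.17 (astragalus), 2.35 (electro-acupuncture) and 1.00 (cisplatin), while all symbols of Psmb8, Psmb9 and Psmb10 lie between -0.02 and 0.30.

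Against the cisplatin array the differences were smaller and went the same way. On the astragalus array 42 of 43 genes were higher than on the cisplatin array, all but Psmb10, with a median of 0.59, or 1.51-fold, where 56.8% of all genes were higher with a median of 0.06. At 1.5-fold 24 were higher, against 9.37% of all genes, and at 2-fold 4, against 2%. None was at least 1.5-fold lower, against 5% of all genes. These counts depend on scaling, since with the trend on level subtracted 6 genes were at least 1.5-fold higher, none was 2-fold higher, and the median was 0.35. With quantile normalization they were 13 and 2. Over all genes, 760 of 17208 were at least 1.5-fold higher with the trend subtracted and 991 of 17189 with quantile normalization. On the deposited values, 76.3% of the genes between the level quartiles of the proteasome genes were higher, with a median of 0.24, and 17.6% at least 1.5-fold.

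On the electro-acupuncture array 36 of 43 were higher than on the cisplatin array, with a median of 0.38, or 1.30-fold, where 52.5% of all genes were higher with a median of 0.02. At 1.5-fold 14 were higher, against 6.03% of all genes. At 2-fold 2 were higher, Psma5 and Psmb7, against 1.32% of all genes, and 4 with quantile normalization. None was at least 1.5-fold lower, against 5.27%.

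Between cisplatin and control the differences were small in size, but most of the genes were higher with cisplatin. On the cisplatin array 39 of 43 were higher than on the control array, with a median of 0.20, or 1.15-fold, where 50.6% of all genes were higher with a median of 0.01. At 1.5-fold 7 (16.3%) were higher, against 7.09% of all genes, namely Psma5, Psma6, Psmb7, Psmc5, Psmc6, Psmd7 and Psmg4. With the trend on level subtracted 4 were, against 1085 of all 17208 genes. One gene, Psma5, was 2-fold higher, at the threshold itself, against 2.01% of all genes, and it was below the threshold under quantile normalization, with the trend subtracted and with each array centred on its median. None was at least 1.5-fold lower, against 4.28%. The 4 genes lower on the cisplatin array were Psme4, Psmd14, Psmd5 and Psmb9, with differences between -0.24 and -0.02.

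The astragalus array was above the electro-acupuncture array for 34 of 43 genes (79.1%), with a median of 0.23, where 57.5% of all genes were higher with a median of 0.06. Genes between the level quartiles of the proteasome genes were close to them, with 82.2% higher and a median of 0.24. The direction among the proteasome genes turned with scaling. Under quantile normalization 21 of them were higher with a median of -0.02, and with the trend on level subtracted 19 were higher with a median of -0.03. At 1.5-fold 3 were higher, Psmf1, Psmg4 and Psmd5, against 5.68% of all genes, and none was at least 2-fold higher (0.657% of all genes) or at least 1.5-fold lower (4.18%). Under both of those scalings none was 1.5-fold higher and 1 was 1.5-fold lower.

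**Figure D2:**
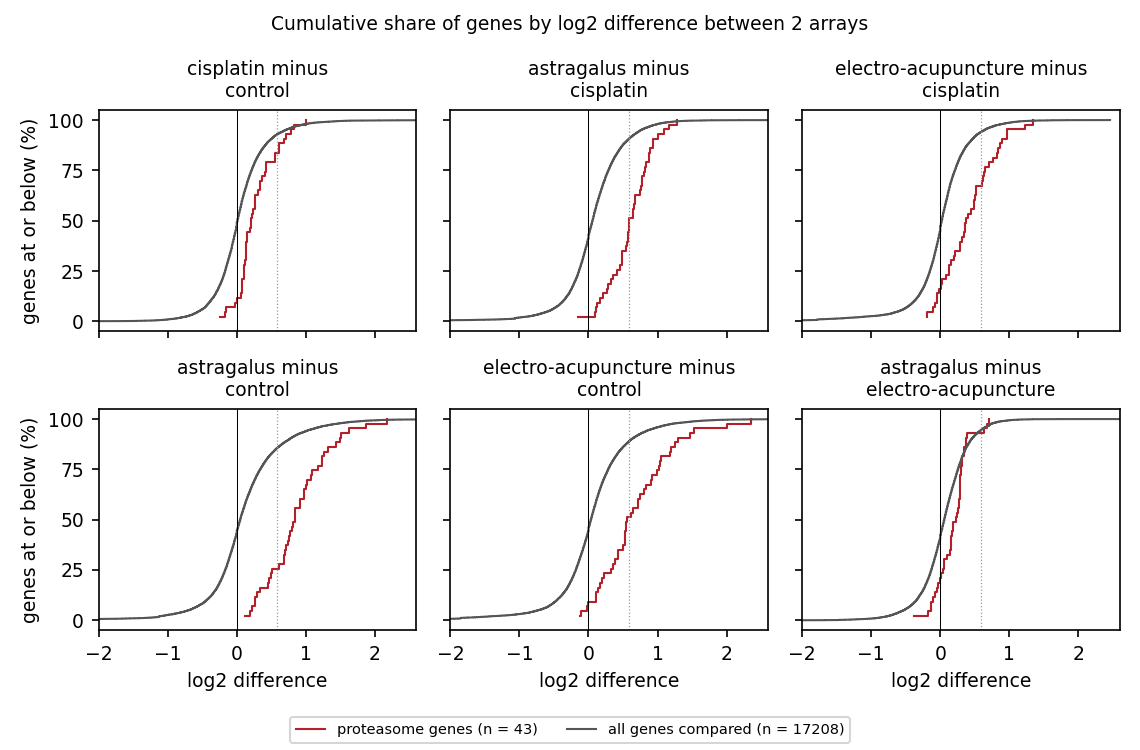
Cumulative share of genes (vertical axis, percent) at or below a log2 difference (horizontal axis) in each of the 6 comparisons, for the 43 proteasome genes and for all 17208 genes compared; the dotted line marks 1.5-fold. The curve of the proteasome genes lies right of the other over most of its height in each panel, with medians of 0.84 against 0.05 for astragalus over control and 0.23 against 0.06 for astragalus over electro-acupuncture. Genes between the level quartiles of the proteasome genes, not drawn, had a median of 0.24 in each of these comparisons.

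Ranked over the 4 arrays, 36 of the 43 genes were lowest on the control array, as were 32.5% of all genes. The astragalus array was the highest for 34, against 34.5% of all genes, but for 20 under quantile normalization and 19 with the trend on level subtracted. The electro-acupuncture array was the highest for 7 (16.3%), against 21.8% of all genes, and the cisplatin array for Psmb10 alone, against 17.3%. For 35 genes both the astragalus and the electro-acupuncture levels were above both the cisplatin and the control level, against 25.1% of all genes. The full order of control, cisplatin, electro-acupuncture and astragalus, low to high, was held by 24 genes, against 11.5%. The difference between the highest and the lowest array had a median of 0.91 over the proteasome genes, 0.44 over all genes and 0.60 over genes of their level range.

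The alpha ring was well above control on both the astragalus and the electro-acupuncture array. All 7 of its genes above the floor were at least 1.5-fold higher on the astragalus array than on the control array (median 1.27), and 6 of 7 were on the electro-acupuncture array (median 1.19). The exception was Psma4, 1.46-fold higher there. Psma5 had log2 levels of 13.14 with astragalus, 13.32 with electro-acupuncture, 11.97 with cisplatin and 10.97 in control. It was thus 4.50-fold and 5.10-fold above control on the first 2 arrays and 2.00-fold on the cisplatin array. Psma6 had 12.99 with astragalus, 12.89 with electro-acupuncture, 12.05 with cisplatin and 11.36 in control. Psma2 had 11.56 with astragalus, 11.25 with electro-acupuncture, 10.28 with cisplatin and 10.06 in control. For Psma2 the larger step lay above the cisplatin array, at 1.28 for astragalus and 0.97 for electro-acupuncture, against 0.22 between cisplatin and control. The remaining alpha genes Psma1, Psma3, Psma4 and Psma7 were 1.79-fold to 2.41-fold above control with astragalus and 1.46-fold to 2.46-fold with electro-acupuncture.

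The standard beta ring followed closely, with all 6 measured genes at least 1.5-fold above control on the astragalus array (median 1.02) and 5 of 6 on the electro-acupuncture array (median 0.89). Psmb7, which carries the trypsin-like active site, had log2 levels of 11.73 with astragalus, 11.87 with electro-acupuncture, 10.64 with cisplatin and 9.86 in control. That is 3.66-fold and 4.03-fold above control for astragalus and electro-acupuncture and 1.72-fold for cisplatin. Psmb6, which carries the caspase-like site, had 8.91 with astragalus, 8.64 with electro-acupuncture, 8.02 with cisplatin and 7.89 in control. Its cisplatin and control levels lay within 0.13 of each other. Psmb5, the subunit with the chymotrypsin-like site, has no value, as said above. The structural beta genes Psmb1, Psmb2, Psmb3 and Psmb4 were 1.67-fold to 2.35-fold above control with astragalus and 1.47-fold to 2.27-fold with electro-acupuncture.

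The inducible catalytic subunits stood apart from their standard counterparts. None of Psmb8, Psmb9 and Psmb10 reached 1.5-fold in any of the 6 comparisons, and over the 4 arrays each spanned only 0.27 to 0.30, against a median span of 1.30 in the alpha ring and 1.02 in the standard beta ring. Psmb8 had log2 levels of 7.18 with astragalus, 7.02 with electro-acupuncture, 7.01 with cisplatin and 6.88 in control. Psmb9 had 6.84 with astragalus, 6.69 with electro-acupuncture, 6.56 with cisplatin and 6.58 in control. Psmb10 had 6.25 with astragalus, 6.36 with electro-acupuncture, 6.40 with cisplatin and 6.13 in control, and was the 1 gene lower with astragalus than with cisplatin. The difference of Psmb9 from control minus that of Psmb6 was -0.76 on the astragalus array, -0.64 on the electro-acupuncture array and -0.15 on the cisplatin array. For Psmb10 minus Psmb7 it was -1.75, -1.78 and -0.51 on those arrays in that order. The mean levels of the 3 inducible genes over the arrays were 7.02 for Psmb8, 6.67 for Psmb9 and 6.29 for Psmb10, all below the members' median level of 9.36. The part of probe brightness in these gaps was not tested.

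The reference promoters of 3 core subunits are shown because these genes mark the spread within the core particle: Psma5 had the largest difference, and Psmb6 and Psmb9 are alternative subunits for the same site. Each runs from 250 bases before to 50 after the gene's start in RefSeq's GRCm38.p6, 5′ to 3′ on the gene's own strand. They lie at chr3:108256676-108256975 on the plus strand for Psma5, chr11:70525107-70525406 on the plus strand for Psmb6 and chr17:34187281-34187580 on the minus strand for Psmb9. Capitals mark matches to 3 searched motifs.
Psma5: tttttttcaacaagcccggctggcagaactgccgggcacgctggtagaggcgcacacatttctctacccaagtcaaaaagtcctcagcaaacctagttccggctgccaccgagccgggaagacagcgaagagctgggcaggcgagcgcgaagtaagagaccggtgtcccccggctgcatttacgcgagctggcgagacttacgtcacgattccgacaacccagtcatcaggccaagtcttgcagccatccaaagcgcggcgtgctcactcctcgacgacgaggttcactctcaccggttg
Psmb6: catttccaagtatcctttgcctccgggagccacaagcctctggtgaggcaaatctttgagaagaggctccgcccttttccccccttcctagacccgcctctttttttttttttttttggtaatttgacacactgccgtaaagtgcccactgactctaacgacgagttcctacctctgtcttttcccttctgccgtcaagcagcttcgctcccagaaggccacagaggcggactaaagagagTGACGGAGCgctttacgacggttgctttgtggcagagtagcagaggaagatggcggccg
Psmb9: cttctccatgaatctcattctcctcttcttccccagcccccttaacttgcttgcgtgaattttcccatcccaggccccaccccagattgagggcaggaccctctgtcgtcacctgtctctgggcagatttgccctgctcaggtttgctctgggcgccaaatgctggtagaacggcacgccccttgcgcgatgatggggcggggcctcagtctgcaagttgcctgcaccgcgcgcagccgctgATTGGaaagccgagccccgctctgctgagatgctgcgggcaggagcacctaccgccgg
The capitals in Psmb6 are the core of the antioxidant response element, TGACNNNGC, and those in Psmb9 are a CCAAT box read on the other strand. Psma5 held no match. Of the 46 genes, 38 had a promoter in the RefSeq table, and both strands were searched. TGACNNNGC, the core bound by Nfe2l1 and Nfe2l2, was found in 5 of 38 (Psmb6, Psmc6, Psmd9, Psmd12 and Psme4), or 13.2%, and in 14.0% of the promoters of 27025 genes. GAAANNGAA, the paired half-sites bound by interferon factors, was found in 7 (Psmb3, Psmb4, Psmc2, Psmd4, Psmd9, Psme1 and Psmg4), or 18.4%, against 9.76%. CCAAT was found in 14, or 36.8%, against 41.1%. None of the 3 motifs contains another. Such a match is a description of letters and not a bound site.

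The 6 genes of the ATPase ring of the cap were all above control on both arrays. On the astragalus array 5 of 6 were at least 1.5-fold above control (median 0.97), or 3 with the trend on level subtracted, and on the electro-acupuncture array 4 of 6 were (median 0.72). Psmc5 led on the astragalus array, with log2 levels of 12.59 there, 12.20 with electro-acupuncture, 11.76 with cisplatin and 11.15 in control. Psmc6 had 11.28 with astragalus, 11.35 with electro-acupuncture, 10.71 with cisplatin and 10.10 in control. Psmc1 was 2.13-fold above control with astragalus and 1.78-fold with electro-acupuncture, Psmc2 1.79-fold and 1.53-fold, and Psmc3 1.64-fold and 1.35-fold. Psmc4 had the smallest differences of the ring, at 1.40-fold and 1.27-fold.

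The other subunits of the cap differed among themselves. Of 11 genes, 8 were at least 1.5-fold above control on the astragalus array (median 0.75) and 3 on the electro-acupuncture array (median 0.53). These counts turned with scaling, to 4 with astragalus and 7 with electro-acupuncture under quantile normalization, and to 2 and 3 with the trend on level subtracted. Psmd7, a lid subunit that pairs with the deubiquitinase Psmd14, had log2 levels of 12.61 with astragalus, 12.57 with electro-acupuncture, 11.81 with cisplatin and 11.10 in control. Psmd14 had 10.59 with astragalus, 10.42 with electro-acupuncture, 9.72 with cisplatin and 9.89 in control, so that its cisplatin level was the lowest of the 4. Psmd6, a lid subunit, had 10.00 with astragalus, 10.38 with electro-acupuncture, 9.52 with cisplatin and 9.39 in control. It was the gene most below electro-acupuncture on the astragalus array, by a log2 difference of -0.38. The lid subunit Psmd12 was 2.35-fold above control with astragalus and 2.06-fold with electro-acupuncture. The scaffold subunits Psmd1 and Psmd2, the ubiquitin receptor Psmd4 and the lid subunit Psmd11 were 1.68-fold to 1.88-fold above control with astragalus and 1.35-fold to 1.45-fold with electro-acupuncture.

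The lid subunits Psmd8, Psmd13 and Psmd3 differed less between arrays. Psmd8 had log2 levels of 9.68 with astragalus, 9.38 with electro-acupuncture, 9.57 with cisplatin and 9.49 in control, a span of 0.30. Psmd13 had 8.64 with astragalus, 8.48 with electro-acupuncture, 8.52 with cisplatin and 8.37 in control, a span of 0.27. Psmd3 had 7.06 with astragalus, 7.05 with electro-acupuncture, 6.96 with cisplatin and 6.55 in control. Its main step lay between the control array and the other 3.

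Among the assembly chaperones, 4 of 6 were at least 1.5-fold above control on the astragalus array (median 0.81) and 3 of 6 on the electro-acupuncture array (median 0.42). Psmg4, which helps build the alpha ring, had log2 levels of 8.06 with astragalus, 7.38 with electro-acupuncture, 7.57 with cisplatin and 6.74 in control. It was 1.78-fold higher with cisplatin than in control, next to Psma5 among all 43 genes. Of the other Psmg genes, Psmg2 was 2.11-fold above control with astragalus and 1.74-fold with electro-acupuncture, and Psmg1 1.38-fold and 1.13-fold. Psmg3 was below the floor, at 5.10 to 5.23 on the 4 arrays. The chaperones of the cap's base differed among themselves. Psmd5 had 8.48 with astragalus, 7.84 with electro-acupuncture, 7.48 with cisplatin and 7.64 in control, with the astragalus level 0.64 above the next. Psmd10, also known as gankyrin, had 8.32 with astragalus, 8.46 with electro-acupuncture, 7.56 with cisplatin and 7.55 in control. Its cisplatin and control levels were 0.01 apart, with the astragalus and electro-acupuncture levels clear of both. Psmd9 had 7.09 with astragalus, 6.74 with electro-acupuncture, 6.82 with cisplatin and 6.76 in control.

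For the alternative activators and the inhibitor, 4 genes, the count by size on the astragalus array turned with scaling. On that array 2 of 4 were at least 1.5-fold above control (median 0.57), against 14.4% of all genes. On the electro-acupuncture array none was, against 11.2% (median 0.16, and -0.01 with the trend on level subtracted). Under quantile normalization, and with the trend subtracted, none was on the astragalus array either, with medians of 0.32 and 0.17. Psme1, a subunit of the interferon-induced activator, had log2 levels of 8.06 with astragalus, 8.0 with electro-acupuncture, 7.85 with cisplatin and 7.61 in control. Psme3, the nuclear activator, had 14.49 with astragalus, 14.12 with electro-acupuncture, 13.90 with cisplatin and 13.80 in control. Psme4, the large activator known from testis and DNA repair, had 9.77 with astragalus, 9.43 with electro-acupuncture, 9.31 with cisplatin and 9.55 in control. It was one of the 4 genes whose cisplatin level was the lowest. Psmf1, an inhibitor of the core particle in vitro, had 8.14 with astragalus, 7.44 with electro-acupuncture, 7.55 with cisplatin and 7.45 in control, so that 3 arrays lay within 0.11 of each other and the astragalus array above them.

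**Figure D3:**
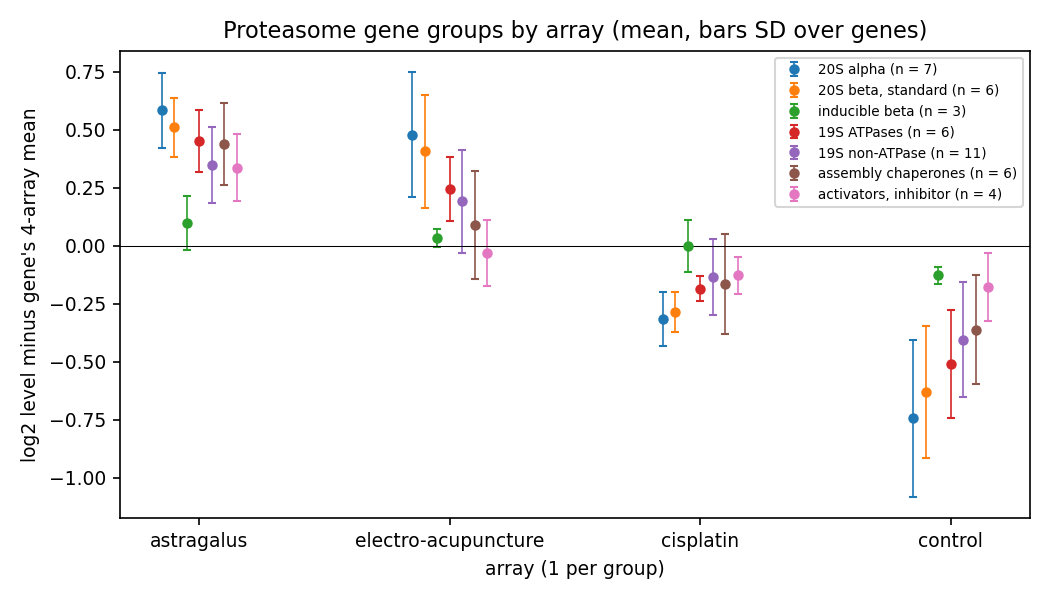
Mean over the genes of each role (points) of the log2 level minus the gene's own mean over the 4 arrays, on the astragalus, electro-acupuncture, cisplatin and control arrays; bars are the SD over genes, which is no replicate error. The alpha ring spreads from 0.58 on the astragalus array to -0.74 on the control array, and the inducible beta subunits from 0.10 to -0.13.

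Brighter proteasome genes had larger differences from control. Across the 43 genes Spearman's rho between mean level and difference was 0.56 both for astragalus over control and for electro-acupuncture over control. Over all 17208 genes it was 0.36 for astragalus and 0.04 for electro-acupuncture. The genes share the arrays and a probe's brightness also depends on its sequence, so this is a description. The 21 genes above the members' median level of 9.36 had a median of 1.01 for astragalus over control and 0.83 for electro-acupuncture over control. The 22 others had 0.73 and 0.47. With the trend of all genes subtracted, the role medians for astragalus over control were 0.82 in the alpha ring, 0.83 in the standard beta ring, 0.55 in the ATPases, 0.42 in the other cap subunits, 0.62 in the chaperones, 0.17 in the activators and inhibitor and 0.20 in the inducible subunits.

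**Figure D4:**
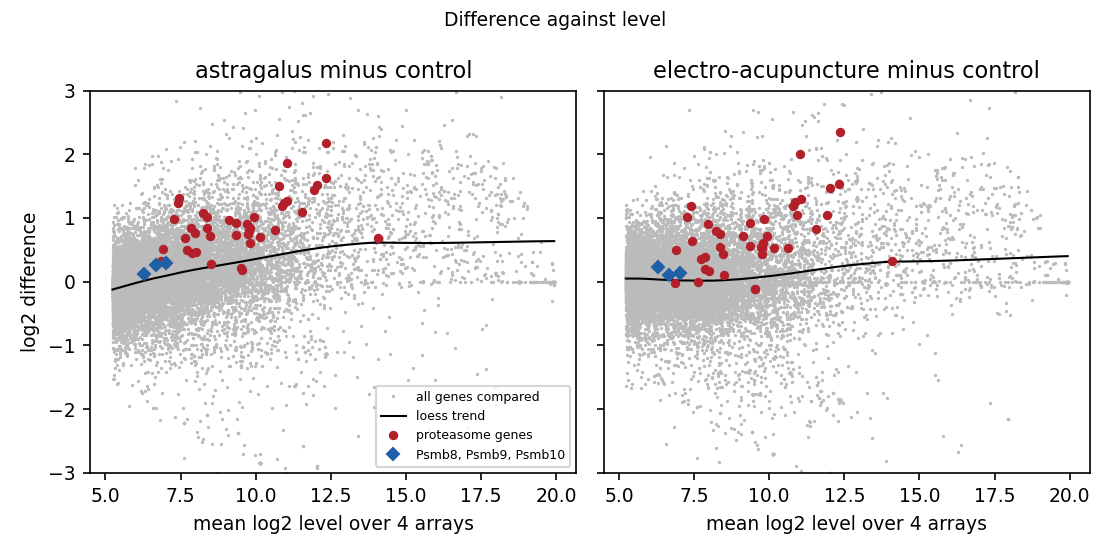
Log2 difference (vertical axis) against mean log2 level over the 4 arrays (horizontal axis) for astragalus over control and electro-acupuncture over control; grey points are all genes compared, red points proteasome genes, blue diamonds Psmb8, Psmb9 and Psmb10, and the line the loess trend, with 48 and 39 genes outside the plotted limits. The trend climbs with level for astragalus and is nearly flat below a level of 10 for electro-acupuncture, and most red points lie above it in both.

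Genes outside the Psm symbols that work with the proteasome were mixed. Of a list of 18 partners, 15 had a value above the floor, and 4 of them were at least 1.5-fold above control both on the astragalus array (14 higher, median 0.39) and on the electro-acupuncture array (12 higher, median 0.20). On the cisplatin array 3 were (11 higher, median 0.08). The shares of all genes at 1.5-fold were 14.4%, 11.2% and 7.09% on those arrays in that order, and 55.3%, 53.7% and 50.6% were higher at all. Pomp, a chaperone of core particle assembly, had log2 levels of 10.82 with astragalus, 10.62 with electro-acupuncture, 9.97 with cisplatin and 9.15 in control. Uchl5, a deubiquitinase of the cap, had 12.39 with astragalus, 12.37 with electro-acupuncture, 11.85 with cisplatin and 11.13 in control. Txnl1, a thioredoxin-like protein bound to the cap, was 1.19 above control with astragalus and 0.93 with electro-acupuncture, and the shuttle receptor Rad23b 0.72 and 0.60. The other deubiquitinase, Usp14, was 0.48 and 0.20 above control. Akirin2, which carries proteasomes into the nucleus, was 0.17 above control with astragalus but -0.24 with electro-acupuncture and -0.56 with cisplatin.

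Of 10 regulators of proteasome genes 7 had a value, and 1 was at least 1.5-fold above control on the astragalus array and the same 1 on the electro-acupuncture array, Nfe2l2, a share near that of all genes (14.4% and 11.2%). With the trend on level subtracted none was on the astragalus array. On the astragalus array 6 of the 7 were above control at all, against 55.3% of all genes, with a list median of 0.13. On the electro-acupuncture array 1 was, against 53.7%, with a list median of -0.09. Nfe2l2, a factor of the antioxidant response, had log2 levels of 9.02 with astragalus, 8.94 with electro-acupuncture, 8.16 with cisplatin and 8.23 in control. Nfe2l1, the factor that raises proteasome genes when the proteasome is inhibited, had 8.55 with astragalus, 8.33 with electro-acupuncture, 8.85 with cisplatin and 8.50 in control, so it was highest with cisplatin. Syvn1, a ubiquitin ligase that acts on Nfe2l1, was lower than control on every array, at -0.18 with astragalus, -0.38 with electro-acupuncture and -0.57 with cisplatin. Of 11 genes for ubiquitin and delivery 5 had a value, and the ubiquitin gene Ubb was not analysed here. On the astragalus array 2 were at least 1.5-fold above control (1 with the trend on level subtracted), against 14.4% of all genes. On the electro-acupuncture array 1 was (2 under quantile normalization), against 11.2%. Ube2n, a ubiquitin-conjugating enzyme, was 1.18 above control with astragalus, 0.98 with electro-acupuncture and 0.32 with cisplatin. Vcp, the ATPase that pulls ubiquitinated proteins out of complexes, was 0.78, 0.54 and 0.35 above control on those arrays in that order. The rest of the list differed less. Differences from control with astragalus and electro-acupuncture were 0.46 and 0.05 for Nploc4, 0.36 and 0.20 for Ube2d3, and 0.12 and -0.13 for Ufd1.

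Genes of MHC class I presentation, which use the peptides that proteasomes make, were mixed as well. All 10 listed were above the floor. At least 1.5-fold above control were 3 with astragalus (B2m, Calr and Pdia3) and 4 with electro-acupuncture (those and Canx), against 14.4% and 11.2% of all genes. With the trend on level subtracted 2 were on each of these arrays. B2m, the light chain, had log2 levels of 18.14 with astragalus, 18.31 with electro-acupuncture, 17.39 with cisplatin and 16.82 in control. The heavy chains H2-K1 and H2-D1 and the peptide transporter Tap1 and Tap2 stayed within 0.19 of control on all 3 arrays. Tap1, whose gene neighbours Psmb9, had 6.83 with astragalus, 6.75 with electro-acupuncture, 6.92 with cisplatin and 6.94 in control. Of 12 interferon-stimulated genes 10 were above the floor. At least 1.5-fold above control were 1 with astragalus, none with electro-acupuncture and 1 with cisplatin, against 14.4%, 11.2% and 7.09% of all genes. The medians of that list were 0.06, -0.07 and -0.11, and the first turned negative with the trend subtracted or the arrays centred.

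**Figure D5:**
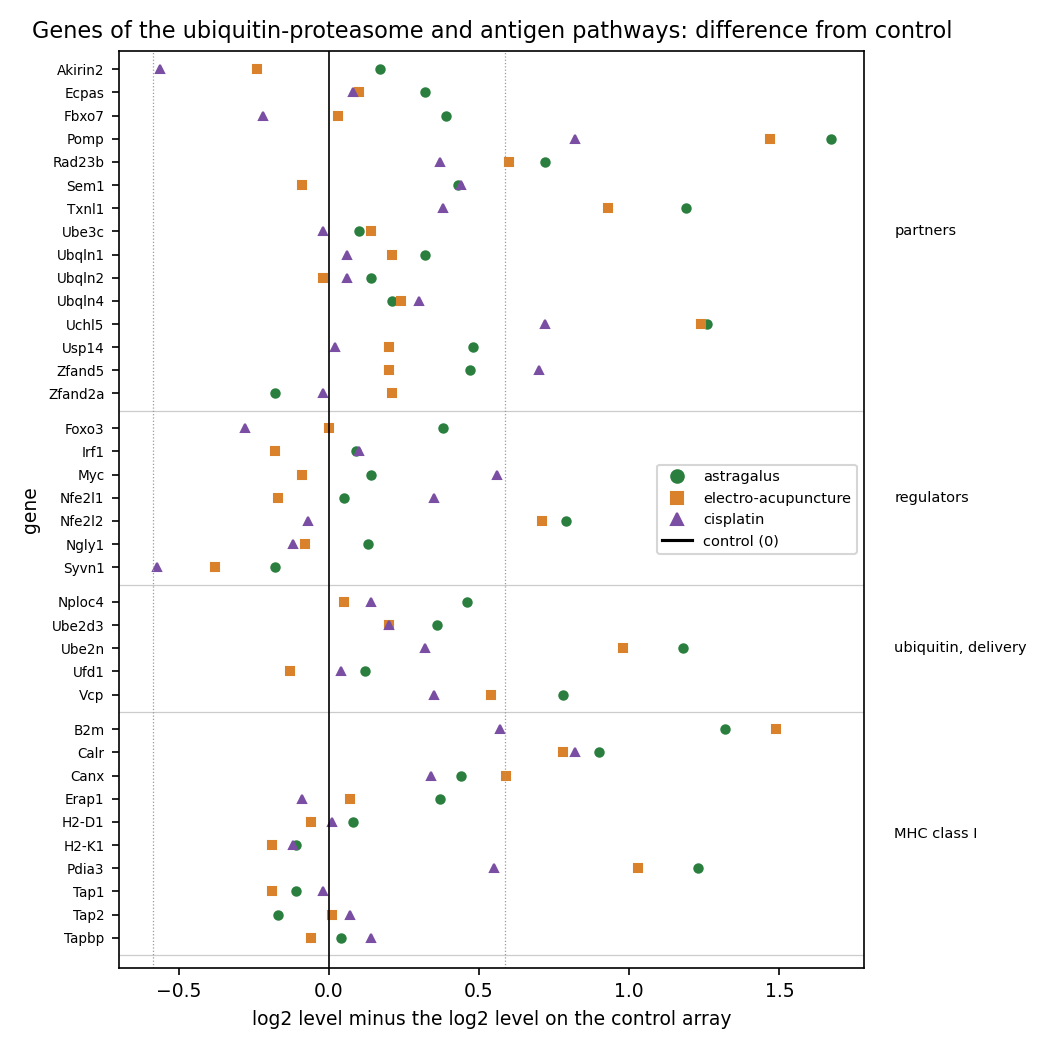
Log2 level minus the level on the control array for genes outside the Psm symbols, grouped as partners, regulators, ubiquitin and delivery, and MHC class I presentation, with 1 symbol for each of the astragalus, electro-acupuncture and cisplatin arrays and dotted lines at 1.5-fold. Pomp lies farthest to the right with astragalus (1.67) and B2m with electro-acupuncture (1.49), while H2-K1, H2-D1, Tap1 and Tap2 lie near 0.

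Marker lists of cells differed between the arrays too, and not always in the order of the proteasome genes. All 11 measured genes of a list of dividing cells were at least 1.5-fold higher with astragalus than with cisplatin (9.37% of all genes). With electro-acupuncture 6 of them were at least 1.5-fold higher than with cisplatin (6.03% of all genes). With the trend on level subtracted these counts were 7 and 1. The log2 of their summed level was 18.99 with astragalus, 18.43 with electro-acupuncture, 18.06 with cisplatin and 18.42 in control. Against control their median difference was 0.88 with astragalus (0.49 with the trend subtracted), 0.35 with electro-acupuncture (0.20) and -0.25 with cisplatin (-0.28), so the cisplatin array was below control for this list and above it for proteasome genes. Of 7 red cell precursor genes 3 were at least 1.5-fold above control with astragalus and none with electro-acupuncture, against 14.4% and 11.2% of all genes. Under quantile normalization or with the trend subtracted none of the 7 was with astragalus. Their log2 summed levels were 17.59 with astragalus, 17.09 with electro-acupuncture, 16.87 with cisplatin and 16.95 in control. Of 9 neutrophil genes 4 reached 1.5-fold above control with astragalus (14.4% of all genes), 4 with electro-acupuncture (11.2%) and 3 with cisplatin (7.09%). The median of that list was 0.42 with astragalus, 0.00 with electro-acupuncture and 0.00 with cisplatin, which turned to -0.19, -0.37 and -0.31 with the trend subtracted. Genes equal to control numbered 4 with electro-acupuncture and 3 with cisplatin, among them S100a8 and S100a9. For a gene at the ceiling the subtraction returns only the trend. That does not cover the astragalus median of 0.42, which is the value of Ltf, a gene below the ceiling. The subtraction also takes out any change that rises with level in most genes, so these negative medians are not read as lower RNA. The list's granule genes of precursors, Mpo, Elane, Ctsg and Prtn3, were above control on all 3 arrays. Ltf and Camp were below control on the cisplatin array, at -0.28 and -0.37, and S100a8 and S100a9 were at the ceiling on every array, where no difference can be measured.

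Lists of other cells followed orders of their own. The 7 B lineage genes had log2 summed levels of 11.21 with astragalus, 10.94 with electro-acupuncture, 10.72 with cisplatin and 12.17 in control, so all 3 sums were below control. Each of the 7 was below control with astragalus and with cisplatin. With electro-acupuncture 6 were, and Rag2 was 0.27 above control. The 6 megakaryocyte genes had 19.34 with astragalus, 19.41 with electro-acupuncture, 19.10 with cisplatin and 16.73 in control. Ppbp, the brightest, had 18.96, 19.04, 18.63 and 16.06 on those arrays in that order, and weighs most in the sum. All 6 were above control on each of the other arrays. Over cisplatin the median per gene was 0.09 with astragalus (3 higher, 2 lower) and -0.065 with electro-acupuncture (2 higher, 3 lower). The 7 osteoblast and stroma genes had 14.26 with astragalus, 13.92 with electro-acupuncture, 15.38 with cisplatin and 11.88 in control. Of these, 5 were highest with cisplatin, but Cxcl12 and Lepr were highest with electro-acupuncture. Cxcl12 had 13.28 there and 12.46 with cisplatin, and Lepr 8.49 and 8.13. The 7 macrophage and monocyte genes had median differences from control of 0.42 with astragalus (0.15 under quantile normalization), 1.12 with electro-acupuncture and 0.05 with cisplatin. Their log2 summed levels had another order, with 16.87 with astragalus, 16.18 with electro-acupuncture, 16.03 with cisplatin and 16.45 in control. With electro-acupuncture 6 of the 7 were above control, but Ly6c2, the brightest, was at -0.30. With astragalus Ly6c2 was 0.42 above control. The part of cell makeup in the proteasome differences was not tested.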

How the data were processed

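The values were deposited on a log2 scale, 1 per transcript cluster and array. They were made with Affymetrix Expression Console, per the submitters' processing notes, and the sources used here give neither its version nor its summary method. The log2 scale was read from the deposited values, which reach a common ceiling of 19.93. Per the labels' protocols, Trizol was used for extraction, and 6 ug of total RNA went into biotin-labelled cRNA.

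Of 65956 clusters 32750 were in the platform's gene table, 31258 with 1 gene symbol and 1492 with several, which name no gene here. Symbols were updated through RefSeq (GRCm38.p6), and 30702 genes were named. For the 441 genes with several clusters the one with the highest mean was used. Genes with a mean at or above 5.235, the median of all clusters, were compared (17208). Each comparison is the difference of log2 values of 2 arrays, with no test. The comparisons to control share that array, as those to cisplatin share theirs. Pattern and gene lists were chosen with earlier results of these data known. Levels on all 4 arrays were to be given for the 3 highest and 3 lowest members in each comparison and for Psmb5 to Psmb10, Psme1 and Psme2, and likewise up to 3 genes at each end per list of partners, regulators, ubiquitin and delivery, and MHC class I. Pomp, Nfe2l1, Nfe2l2, Tap1 and Ubb were named whatever their values, and a further item of that rule is not reported here.

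Alternatives were quantile normalization, subtraction of a loess trend on level (span 0.4, 3 iterations), centring each array, no filter, a filter at the 75th percentile, the mean of clusters, a wider symbol pattern and other backgrounds. The steps were tested on simulated data. Python 3.11.15, numpy 2.4.6, pandas 2.3.3, statsmodels 0.14.6, scipy 1.17.1 and matplotlib 3.10.9 were used.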

Additional observations from a re-analysis of the deposited data

How the results depend on the processing

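No paired analysis was possible because each group has 1 array. The array number limits every value, and no difference can be set against replicate spread. Quantile normalization gave 0 genes at least 2-fold higher for cisplatin over control, 13 at 1.5-fold and 2 at 2-fold for astragalus over cisplatin, 4 at 2-fold for electro-acupuncture over cisplatin and 9 at 2-fold for astragalus over control. For astragalus over electro-acupuncture it gave 0 at least 1.5-fold higher, 1 lower, 21 higher at all and a median of -0.0225, and the astragalus array was the highest for 20. With the loess trend on level subtracted, 4 genes were at least 1.5-fold and 0 at least 2-fold higher for cisplatin over control. For astragalus over cisplatin 6 and 0 were, with a median of 0.35, and for astragalus over control 20 and 6. For astragalus over electro-acupuncture 0 were 1.5-fold higher, 1 lower and 19 higher at all, with a median of -0.0250, and the astragalus array was the highest for 19. Centring the arrays left 0 genes at 2-fold for cisplatin over control. The subtraction also takes out any change that rises with level in most genes.

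For Psmb9 minus Psmb6, astragalus over electro-acupuncture was 0.04 with quantile normalization and 0.0453 with the trend subtracted, against -0.12. For Psmb10 minus Psmb7 it was 0.33 and 0.34, against 0.03. A pattern that allows further letters added Psmc3ip and Psme3ip1, which are not subunits, and made 1 gene at least 1.5-fold lower for electro-acupuncture over cisplatin, Psme3ip1. Genes of the members' level range were at least 1.5-fold higher in 17.6% for astragalus over cisplatin, 26.4% for astragalus over control, 16.9% for electro-acupuncture over control and 9.97% for astragalus over electro-acupuncture. Protein-coding genes were in 2.99% for electro-acupuncture over cisplatin and 3.37% for astragalus over electro-acupuncture. Without a filter, with the 75th percentile filter and with the mean of clusters every count and median over the members kept its direction and stayed within 1.5 times.

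Over all genes, 65.2% of the 1.5-fold calls for astragalus over cisplatin were higher, against 51.3% with quantile normalization and 41.8% with the trend subtracted. For astragalus over control the share was 68.3%, against 51.1% with the trend subtracted, and for astragalus over electro-acupuncture 57.6%, against 41.6% and 35.3%.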
